A study of Mus musculus with 7 samples.

Results

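The Igf2bp genes encode a small family of RNA-binding proteins, and they were followed here through every array feature assigned to them. The members were the probe sets, each a group of short array probes read as 1 value, that the platform's annotation table pairs with Igf2bp1, Igf2bp2 or Igf2bp3. This gave 10 of 45101 probe sets, of which 4 belonged to Igf2bp1 and 6 to Igf2bp3, or 2 of the 18193 genes tested. That table pairs 0 probe sets with Igf2bp2, so Igf2bp2, the proposed direct target of Hmga2 in myoblasts, is not analysed here.

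Affymetrix arrays measured total RNA from the myoblasts, the dividing precursors of skeletal muscle fibres, of C57BL/6 mice that received no treatment. The 3 wild type samples (Hmga2 +/+) were all from females. The 4 Hmga2 KO samples (Hmga2 -/-) came from males in replicates 1 and 3 and from females in replicates 2 and 4. The labels state neither the ages of the mice nor the culture conditions, the part of the gene deleted or any batch. The comparison asked which transcripts depend on Hmga2, an architectural protein of chromatin with AT-hook domains. No wild type male was measured, so a difference between genotypes in males cannot be told apart from a difference between sexes.

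Igf2bp proteins bind mRNAs in the cytoplasm through paired RNA recognition motifs and KH domains, package them into granules, and influence where the mRNAs go, how long they last and how well they are translated. They are named after their binding of Igf2 mRNA, and they also bind mRNAs such as Myc, many of them at sites carrying m6A, a methyl mark on adenosine. Igf2bp1 and Igf2bp3 are typical of embryonic tissue, are silenced in most adult tissues and return in many tumours, whereas Igf2bp2 persists in adult tissues. Igf2bp1, Igf2bp2 and Hmga2 mRNAs are all known targets of the let-7 miRNAs, which Lin28 proteins hold in check.

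The values are intensities on a linear scale, with a median of 150 on all 7 arrays and a lowest value of 33.2 to 36.7. As a measure of background, 9 probe sets of 3 Y-linked genes gave 33.9 to 58.2 in the 5 female samples. The brightest probe set of Hmga2 had 11999, 9998 and 12799.9 in wild type replicates 1, 2 and 3, and 96.5, 85.7, 96.7 and 104 in Hmga2 KO replicates 1, 2, 3 and 4. The groups were therefore far apart. The measured difference was -6.90 on the log2 scale, whose size is limited by Hmga2 KO values close to background (exact two-sided permutation p = 0.0286, the smallest that the 35 possible arrangements allow). The levels of Xist and of Y-linked genes matched the labelled sex in 7 of 7 samples. The myoblast markers Pax7, Myod1, Myf5, Myog, Des, Cdh15, Mef2c and Itga7, 8 of 8 of which were measured, had summed intensities of 60870 to 65746 in wild type. In the Hmga2 KO samples these sums were 47797 and 56194 in the males and 65953 and 60496 in the females. Of 10 markers of fibroblasts and fibro-adipogenic progenitors 9 were measured, and the mean of 9 of 9 was higher in Hmga2 KO. Of these, 4 had an unadjusted p under 0.05, or 44.4% of the list against 2.99% of all genes in that direction. After adjustment 0 passed, against 0.0275% of all genes. The levels differed widely between these markers. The matrix genes Dcn, Lum and Dpt were dim, with 38.9 to 82.5 in any sample. Mean intensities in wild type and Hmga2 KO were 95.9 and 335 for Smoc2, 145 and 211 for Cd34 and 217 and 301 for Pdgfra. They were 1019 and 1785 for Islr, 2750 and 4581 for Mgp and 6343 and 6611 for Tcf7l2. The summed intensity of the 9 measured markers was 9849 to 11572 in wild type. It was 13590 and 13330 in the male and 14404 and 14683 in the female Hmga2 KO samples. Endothelial markers summed to 342 to 424, leukocyte markers to 466 to 484 and Schwann cell markers to 222 to 343 over the samples, with means of 51.2 to 156 for a single gene in a group. The part of these markers in the values below was not tested.

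Igf2bp3, the family member best known as an oncofetal protein, was above the Y-linked background in all 7 samples, and its signal was lowest in the female Hmga2 KO samples. Its lowest value on any probe set, 187, was below the 379 that probe sets for genes of other organs reached at most. Over the 6 probe sets the mean of the female Hmga2 KO samples lay 1.91-fold to 2.14-fold below the wild type mean, while the male Hmga2 KO samples lay near the wild type ones. The difference between all Hmga2 KO and wild type samples did not pass the test on any probe set after adjustment over the array.

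The upstream sequence of Igf2bp3 is shown because Hmga2 binds runs of A and T, although no binding was measured in this study. RefSeq (GRCm38.p6) places the 250 bases before the annotated start of its transcript on the minus strand, at chr6:49214955-49215204. Capitals mark the longest unbroken run of A and T bases and the E-box CACGTG, a motif that reads the same on both strands.
Igf2bp3 upstream: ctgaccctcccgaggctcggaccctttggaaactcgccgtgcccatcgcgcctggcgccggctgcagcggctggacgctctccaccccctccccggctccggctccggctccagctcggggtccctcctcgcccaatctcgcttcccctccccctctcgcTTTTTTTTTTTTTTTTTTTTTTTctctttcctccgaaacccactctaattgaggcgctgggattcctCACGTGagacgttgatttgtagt
The run is 23 bases long and begins 90 bases before the start. A run of A and T at least as long occurs in 1.14% of 32851 RefSeq promoter windows of 300 bases (250 before and 50 after the start), whose median longest run is 7. The window as a whole is 39.7% A and T, below the median of 47.3%. CACGTG occurs 2 times in the window, 1 of them upstream of the start. Of all windows, 7.15% hold it at least once and 0.594% hold it 2 or more times. These matches describe the letters only. The RefSeq span of the gene reaches beyond this start, to position 49215469, so a longer gene model begins further upstream.

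The brightest Igf2bp3 probe set, 1433732_x_at, had intensities of 1635, 2229.8 and 1766 in wild type replicates 1, 2 and 3. In Hmga2 KO it had 1626 and 1642 in the males, replicates 1 and 3, and 781 and 1007 in the females, replicates 2 and 4. The females were the lowest of all samples, whereas the males lay on either side of the lowest wild type sample, so that the groups overlapped narrowly.

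The other probe sets split the Hmga2 KO samples in the same way. On 1422610_s_at the wild type samples had 1004, 1093 and 1075, the male Hmga2 KO samples 964 and 1141, and the female ones 435 and 594. On 1422611_s_at these values were 1126, 1211 and 1041 in wild type, 1001 and 1222 in the males and 512 and 588 in the females. In both probe sets male replicate 1 lay below and male replicate 3 above the wild type samples, with the females far below.

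On 1433731_at the wild type samples had 1182, 1522 and 1256, the male Hmga2 KO samples 1270.5 and 1219, and the female ones 576 and 819. On 1450687_at, the dimmest of the 6 probe sets, wild type had 426, 442 and 422, the males 331 and 469 and the females 187 and 215. On 1453957_a_at wild type had 884, 557 and 621, the males 805 and 801 and the females 269 and 458. The males lay inside the wild type range on 1433731_at and 1453957_a_at, and on either side of it on 1450687_at.

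Across the 6 probe sets, both female Hmga2 KO samples were below all 5 other samples in 6 of 6, and replicate 2 was the lowest sample in 6 of 6. Through the males, wild type and Hmga2 KO overlapped on 6 of 6, whereas 10.5% of all probe sets had groups without overlap. As a share of the wild type mean, the median over the probe sets was 42.6% in female replicate 2 and 54.9% in female replicate 4. It was 90.1% in male replicate 1 and 108% in male replicate 3. The 15 pairs of Igf2bp3 probe sets correlated at 0.761 to 0.989 over the 7 samples, with a median Pearson r of 0.945, a description of signals that share a transcript and an array. Of the 6, 4 carry the suffix s, x or a, by which the maker marks probes shared between transcripts. Part of their signal may therefore come from other transcripts.

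**Figure D1:**
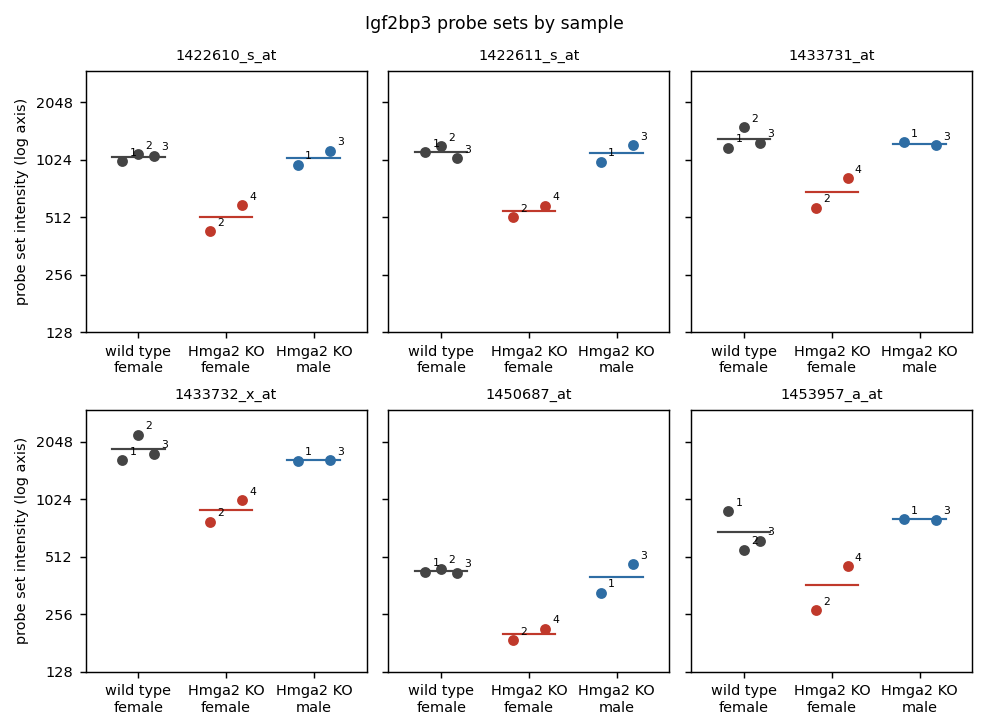
Intensity (log axis) of the 6 Igf2bp3 probe sets in each sample, with wild type females, female Hmga2 KO and male Hmga2 KO samples side by side, replicate numbers beside the points and a line at each group's mean. In all 6 panels the 2 female Hmga2 KO samples are the lowest, down to 187, while the males lie near the wild type samples.

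With 1 value per gene, taken from the brightest probe set, the mean log2 value of Igf2bp3 was 10.86 ± 0.23 (SD, n = 3) for wild type, against 10.23 ± 0.53 (SD, n = 4) for Hmga2 KO. The difference was -0.63 (SE 0.261, 95% interval -1.22 to -0.04), with an unadjusted p of 0.0397 and an adjusted p of 0.354 by limma. Of all genes, 13.3% had an unadjusted p under 0.05, and 0.0275% passed after adjustment. The exact two-sided permutation p over the 35 arrangements was 0.171. A smaller number of cells making Igf2bp3 and less Igf2bp3 mRNA per cell cannot be told apart in such bulk samples.

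Among the probe sets, the log2 difference ran from -0.63 to -0.34, with the mean lower in Hmga2 KO in 6 of 6. Of these, 2 had an unadjusted p under 0.05, against 11.6% of all probe sets in either direction and 7.9% in the lower direction. After adjustment 0 of 6 passed (adjusted p = 0.401 to 0.734, limma), as against 0.0178% of all probe sets. The smallest difference, -0.34, was that of 1453957_a_at, the most variable probe set.

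The spread within Hmga2 KO followed the sex of the mice. Set against the same 3 wild type samples, the female Hmga2 KO samples differed by -1.07 (SE 0.168, unadjusted p = 1.85e-04, adjusted p = 0.194, limma), a 2.10-fold lower level. The male Hmga2 KO samples differed by -0.19 (SE 0.168, adjusted p = 0.633). For comparison, 7.39% of genes had an unadjusted p under 0.05 and 0.022% passed the adjusted test between female Hmga2 KO and wild type, and 0.198% passed between male Hmga2 KO and wild type. These comparisons share their wild type samples.

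Over the probe sets the female difference was -1.10 to -0.93, and 6 of 6 had an unadjusted p under 0.05, against 6.51% of all probe sets. After adjustment 0 of 6 passed (adjusted p = 0.139 to 0.612, limma), against 0.0133% of all probe sets. The male difference was -0.19 to 0.25, with both signs among the probe sets.

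Compared directly, the male Hmga2 KO samples had 1.84 times the Igf2bp3 level of the females (log2 difference 0.88, SE 0.184, unadjusted p = 0.00123, adjusted p = 0.337, limma). Of all genes 6.29% had an unadjusted p under 0.05 in this comparison, and 0.0385% passed after adjustment. The probe sets gave 1.81-fold to 2.29-fold, with 6 of 6 under an unadjusted p of 0.05, against 5.32% of all probe sets, and 0 of 6 passing (adjusted p = 0.137 to 0.515), against 0.0511%. With 2 samples of each sex and no wild type male, sex cannot be told apart here from other differences between these 4 mice.

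**Figure D2:**
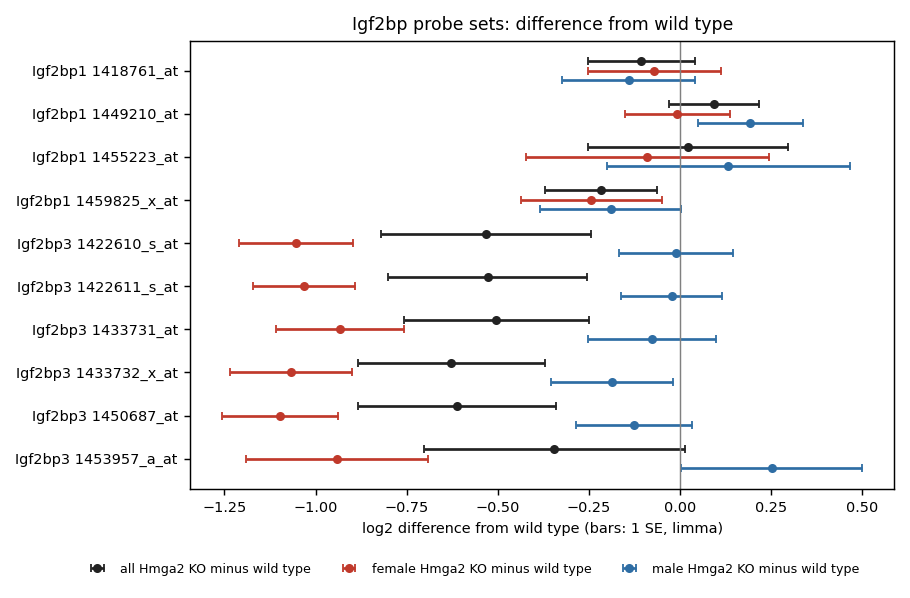
Log2 difference from wild type (horizontal axis, bars of 1 SE from limma) for the 10 Igf2bp probe sets, for all Hmga2 KO samples (black), the females (red) and the males (blue). The female values of Igf2bp3 lie between -1.10 and -0.93 and its male values between -0.19 and 0.25, whereas the Igf2bp1 values lie close to 0.

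Igf2bp1, the family member first known for binding Actb and Myc mRNAs, gave dim signals. Its 4 probe sets ranged from 64.8 to 157.9 over the 28 values. All 28 lay above the Y-linked background, but this is only a faint signal. Of 7 probe sets for genes of other organs, 1, of the sperm protein gene Prm1, had a higher mean, at 344, and the median over all 7 was 51.9. Whether Igf2bp1 mRNA was present could therefore not be settled from these intensities.

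The brightest Igf2bp1 probe set, 1455223_at, had 131, 84.6 and 77.2 in wild type and 158, 96.1, 68.7 and 82.7 in Hmga2 KO replicates 1 to 4. On 1459825_x_at the values were 109.9, 94.6 and 105 in wild type and 115, 84.8, 70.5 and 88.9 in Hmga2 KO. The highest value on each came from Hmga2 KO replicate 1 and the lowest from replicate 3, both of them males, so the samples of 1 sex spanned the whole range. On 1418761_at wild type had 93.6, 72.2 and 103 and Hmga2 KO 92.7, 80.2, 69.3 and 88.5. On 1449210_at wild type had 81.8, 79.8 and 64.8 and Hmga2 KO 93.8, 74.2, 78.8 and 75.1. The groups overlapped on 4 of 4 probe sets, and the 6 pairs of probe sets correlated at -0.19 to 0.78.

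The mean log2 value of Igf2bp1 was 6.58 ± 0.40 (SD, n = 3) for wild type, against 6.61 ± 0.51 (SD, n = 4) for Hmga2 KO. The difference of 0.02 (SE 0.280, adjusted p = 0.981, limma; exact two-sided permutation p = 0.943) had a 95% interval of -0.61 to 0.65, so that sizeable differences in either direction were not excluded. The sign of this small difference turned with the choice of probe set and with sex in the model. The probe sets gave -0.22 to 0.09, with 2 means lower and 2 higher in Hmga2 KO. An unadjusted p under 0.05 was reached by 0 of 4, against 11.6% of all probe sets. The difference between male and female Hmga2 KO samples was 0.22 (SE 0.374, adjusted p = 0.993).

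**Figure D3:**
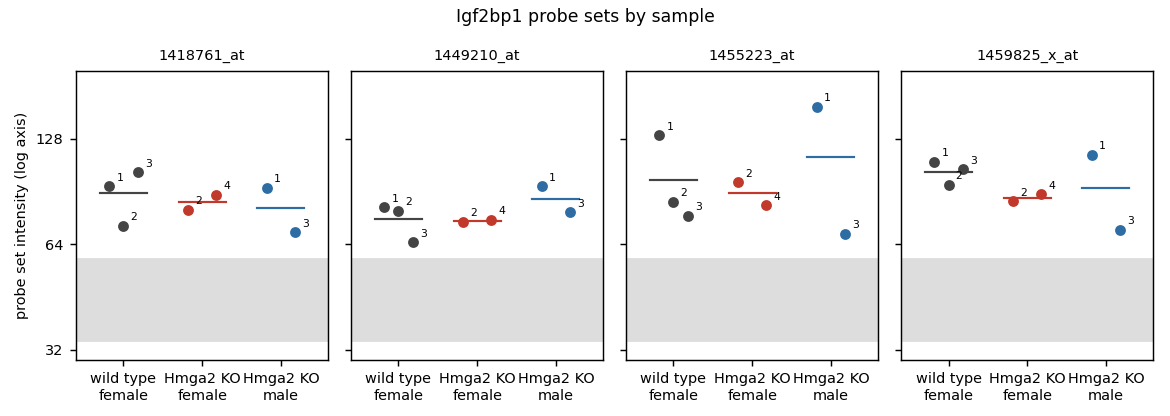
Intensity (log axis) of the 4 Igf2bp1 probe sets in each sample, by group, with a line at each group's mean and a grey band over the 33.9 to 58.2 that Y-linked probe sets gave in female samples. All values lie above the band but within 64.8 to 157.9, and the groups overlap in all 4 panels.

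The genes that flank the family members on the chromosome did not pass the test. Malsu1, a mitochondrial ribosome assembly factor next to Igf2bp3 on chromosome 6, differed by -0.23 (adjusted p = 0.429, limma), and Tra2a, a splicing factor on its other side, by 0.01. Beside Igf2bp1 on chromosome 11, the glycosyltransferase gene B4galnt2 differed by -0.07 and the incretin hormone gene Gip by -0.14, both dim. The sign for Tra2a, B4galnt2 and Gip was not stable across the alternatives.

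Messenger RNAs reported as clients of the Igf2bp proteins were next examined as a fixed list of 23 genes, of which 20 were measured. By limma 0 of 20 passed the test in either direction, against 0.0275% of all genes. An unadjusted p under 0.05 was found for 0 of 20, against 2.99% of all genes higher and 10.3% lower in Hmga2 KO. The mean was higher in Hmga2 KO for 5 and lower for 15, with a median log2 difference of -0.07, the same as the -0.07 over all genes.

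Igf2, the growth factor mRNA from which the family takes its name, had 7968, 11500.2 and 10775 in wild type and 5416, 10903, 10787 and 8798 in Hmga2 KO replicates 1 to 4. The lowest value was in male replicate 1 and the other Hmga2 KO samples lay within the wild type range, so the difference of -0.20 (adjusted p = 0.743, limma) turned to 0.02 without that sample. Myc, a transcription factor that drives growth, had 1823, 2063 and 1328 in wild type and 1358, 1697, 1786 and 1195 in Hmga2 KO. Its groups overlapped broadly, with a difference of -0.20 (adjusted p = 0.658) that was -0.06 without wild type replicate 2.

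Trim54, which encodes a muscle RING finger protein of microtubules, differed by -0.52 (SE 0.251, adjusted p = 0.408), the largest difference of the list over all samples, but by -0.23 in females alone and by -0.27 without wild type replicate 2. Its values were 877, 1357 and 764 in wild type, 534 and 574 in the male and 1009 and 677 in the female Hmga2 KO samples, so that the groups overlapped through female replicate 2. Abcb1b, a drug efflux transporter, had 607, 469 and 552 in wild type, 957 and 860.1 in the male and 516 and 549 in the female Hmga2 KO samples. Its difference was 0.36 over all Hmga2 KO samples but -0.02 in females alone, since the high values were those of the males. Ccnd3, a cyclin of the G1 phase, differed by -0.23 (adjusted p = 0.443; -0.07 in females alone), with 7332, 8436 and 8507 in wild type, 5828 and 6409 in the males and 7837 and 7571 in the females. For these 3 genes the mean of the Hmga2 KO females lay nearer to wild type than that of the males, whereas for Igf2bp3 the males lay nearer. They were named for their smallest p, and other clients went both ways. The males lay nearer for Myc (females -0.26, males -0.13) and Ccnd1 (females -0.24, males -0.14). The females lay nearer for Igf2 (females -0.02, males -0.38).

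The remaining named clients differed little. The G1 cyclin Ccnd1 differed by -0.19, the transcription factor Sp1 by 0.13, the IGF receptor Igf1r by 0.12, the small GTPase Nras by -0.09 and the hyaluronan receptor Cd44 by 0.08, each with overlapping groups and an adjusted p of 0.510 or more.

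**Figure D4:**
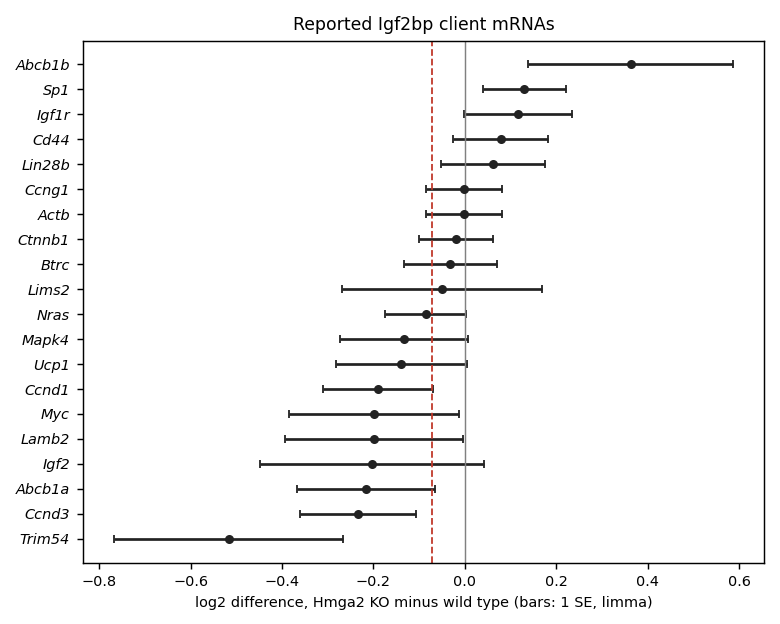
Log2 difference between Hmga2 KO and wild type (horizontal axis, bars of 1 SE from limma) for the 20 measured client mRNAs, in order of size, with a dashed red line at the median of all genes, -0.07. The values run from -0.52 for Trim54 to 0.36 for Abcb1b, 15 of 20 lie below 0, and none passed the adjusted test.

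Proteins that share RNA granules with the Igf2bp family were covered by 22 genes, of which 21 were measured. Again 0 passed the test, 0.0275% of all genes doing so, and 1 was lower with an unadjusted p under 0.05, against 10.3% of all genes in that direction. The means were lower in Hmga2 KO for 16 and higher for 5 (median -0.10). The member with the smallest p was Fxr2, a relative of the fragile X protein, whose values were 1016 to 1230.3 in wild type and 881 to 969 in Hmga2 KO (difference -0.24, adjusted p = 0.348, limma). G3bp1, the core protein of stress granules, differed by -0.19 and Hnrnpa1, a splicing and export factor, by 0.17. Fxr2 and Hnrnpa1 were the 2 of 21 whose groups did not overlap, against 11.7% of all genes.

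In the let-7 and Lin28 axis, 27 of 29 genes were measured and 0 passed the test, against 0.0275% of all genes. The means were lower in 18 and higher in 9, with a median of -0.03, and 2 were lower with an unadjusted p under 0.05, or 7.41% of the list against 10.3% of all genes in that direction. These were Plagl2, a zinc finger factor and let-7 target, at 419 to 523 in wild type and 237 to 421 in Hmga2 KO (difference -0.54, adjusted p = 0.333, limma), and Dis3l2, the nuclease that degrades uridylated let-7 precursors (difference -0.34, adjusted p = 0.375). Trim71, a let-7 target itself, differed by 0.20.

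In the m6A machinery, 17 of 18 genes were measured and 0 passed, against 0.0275% of all genes. With an unadjusted p under 0.05, 1 was lower, or 5.88% of the list against 10.3% of all genes in that direction. The means were lower in 15 and higher in 2, and the median of -0.07 equalled that of all genes. Mettl14, a subunit of the enzyme that writes m6A, had 1090.3 to 1324 in wild type and 862 to 1057 in Hmga2 KO, without overlap (difference -0.31, adjusted p = 0.305, limma). Rbm15b, an adaptor of the same enzyme, differed by -0.14, also without overlap, and the demethylase gene Fto by -0.23 with overlap (-0.09 in females alone). These 2 of 17 genes without overlap compare with 11.7% of all genes.

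Other regulators that bind mRNAs were measured for 33 of 34 genes, and 0 passed, against 0.0275% of all genes. Here 5 were lower with an unadjusted p under 0.05, or 15.2% of the list against 10.3% of all genes in that direction. The means were lower for 27 and higher for 6 (median -0.12). Mbnl3, a muscleblind protein that antagonises muscle differentiation, had 243 to 366 in wild type and 183 to 262 in Hmga2 KO (difference -0.51, adjusted p = 0.298, limma). Khdrbs3, a splicing regulator with a KH domain, differed by -0.42. Like Igf2bp3 it was lower in the females, at -0.64 from wild type (adjusted p = 0.471, limma), than in the males, at -0.20. Fubp1, which also carries KH domains, differed by -0.27, with -0.23 in the females and -0.31 in the males. Its difference over all samples turned positive with other probe sets of the gene.

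In the IGF axis, 14 of 15 genes were measured, 0 passed, against 0.0275% of all genes, and 0 had an unadjusted p under 0.05, against 13.3%, with 8 means higher and 6 lower (median 0.05). Igfbp7, a secreted IGF-binding protein, had 1008 to 3114 in wild type and 2409 to 3864 in Hmga2 KO, with a difference of 0.59 (adjusted p = 0.469, limma) that was 0.12 without wild type replicate 2. Igfbp4, another such protein, differed by -0.41 and the insulin receptor gene Insr by -0.21, but both by -0.07 in females alone. The largest difference of the list was that of Igfbp2, at 0.66 (adjusted p = 0.731, limma). Its mean intensity was 430 in wild type, 239 in the female and 1546 in the male Hmga2 KO samples.

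Genes whose values ran most like those of Igf2bp3 over the 7 samples were taken by Pearson r of log2 values, among 2274 genes that were bright (mean log2 value of at least 8) and variable (SD of at least 0.25). These correlations only describe 7 arrays, which share their scaling, and in each of the 8 genes below the 2 female Hmga2 KO samples stood at 1 end of the range. The 4 most alike were Grb10, an adaptor protein that damps insulin and IGF receptor signalling (r = 0.963), the limb homeobox gene Shox2 (0.942), Wwc1, an upstream regulator of the Hippo pathway (0.870), and Fosl1, a subunit of the AP-1 transcription factor (0.861).

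Grb10 had 8198, 9086 and 7234 in wild type, 7279 and 7259 in the male and 1532 and 3471 in the female Hmga2 KO samples. The females were thus far below every other sample, and the difference between female Hmga2 KO and wild type was -1.82 (SE 0.293, adjusted p = 0.200, limma). Shox2 had 488, 564 and 476 in wild type, 389 and 509 in the males and 228 and 215 in the females, a female difference of -1.19 (adjusted p = 0.0743). Wwc1 and Fosl1 had smaller female differences, of -0.50 and -0.62, and male replicate 3 lay below the wild type samples for both.

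The 4 genes with the lowest r were Hoxc13, a homeobox gene (-0.956), Tmlhe, the first enzyme of carnitine synthesis (-0.940), Tmem86a, a lysoplasmalogenase (-0.928), and Etfbkmt, a methyltransferase of electron transfer flavoprotein (-0.916). Hoxc13 had 739, 518 and 557 in wild type, 537 and 572 in the males and 1476 and 1200.1 in the females. The females were again apart, above all other samples, with a difference from wild type of 1.15 (SE 0.173, adjusted p = 0.163, limma). For the other 3 genes this female difference was 0.52 to 0.67. The 8 genes were picked by their likeness in these samples, so their differences are a description.

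**Figure D5:**
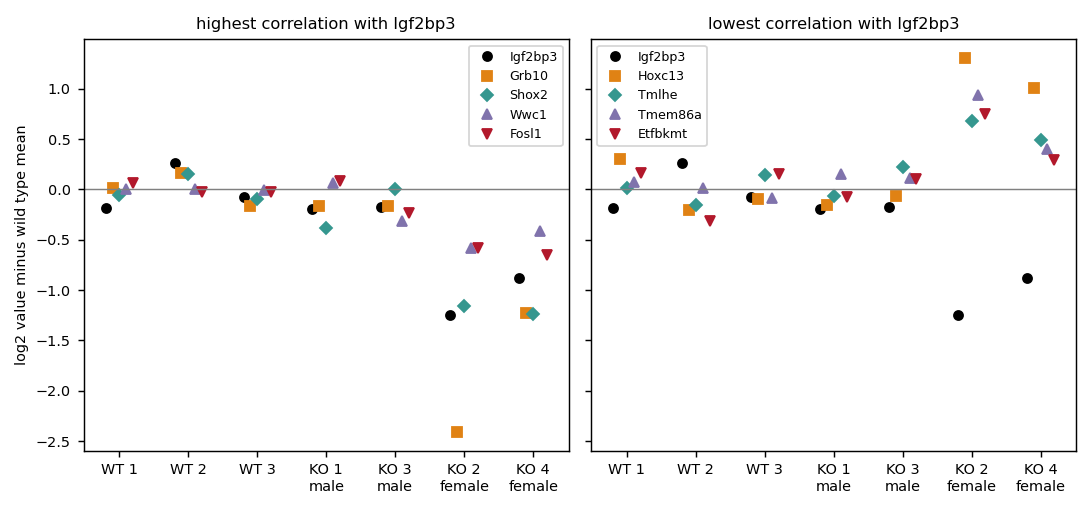
Log2 value minus the wild type mean (vertical axis) in each of the 7 samples for Igf2bp3 (black circles) and the 4 genes with the highest (left) and lowest (right) Pearson r with it. The female Hmga2 KO samples, replicates 2 and 4, lie at 1 end of the range for every gene, down to -2.41 for Grb10 and up to 1.30 for Hoxc13, while the males lie between -0.38 and 0.23.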

How the data were processed

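The authors deposited 1 table of probe set intensities on a linear scale, with 7 samples in columns; its equal median of 150 per array shows a common scaling. How probes were summarized is not stated in the labels or the table. Probe sets were named through the platform's annotation table (34958 with 1 gene, 932 with several, 9160 with none, 64 controls). Values were taken as log2(intensity + 1), which lowers differences of dim genes only slightly, as the lowest intensity was 33.2. Differences of genes close to background are limited in size by that background. A fit over 45037 probe sets and a fit over 18193 genes, each represented by its brightest probe set, compared Hmga2 KO with wild type with limma 3.58.1 (lmFit, eBayes; R 4.3.3), two-sided, with Benjamini-Hochberg adjustment over the whole fit and a threshold of 0.05. A fit with 3 groups (wild type, female and male Hmga2 KO) gave the contrasts by sex. Replicates are biological, per the labels, and their small number limits precision.

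Members and gene lists were chosen with earlier results of these data known. Named are all Igf2bp probe sets and genes, Hmga2, in each list other than cell type markers the 3 members with the smallest p, clients of the Igf2bp proteins, chromosomal neighbours, and the 4 genes at each end of the likeness to Igf2bp3. Igfbp2 is named in addition for the size of its difference. Whether replicate numbers pair the samples could not be settled, since the deviations of same-numbered samples correlated at 0.31, 0.37 and -0.18. The main fits left the samples unpaired. The 3' to 5' ratio of the Actb control was 1.94 in wild type replicate 2 and 1.61 to 1.74 elsewhere. The labels number the animal of Hmga2 KO replicate 2 in conflicting ways. The scripts were tested on simulated data.

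Results were recomputed with quantile normalization, without the dimmest 40% of features, with sex as a covariate, in females alone, with a replicate block, with array weights, with a trended and robust prior, with a pseudocount of 16, with another choice of probe set (the mean of a gene's probe sets, or the most variable), and without each sample.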

Additional observations from a re-analysis of the deposited data

Results flagged for a closer look

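In 1 of 48 values examined, 1 of the 4 Hmga2 KO samples stood apart from the other 3 by Dixon's criterion. Dis3l2, the nuclease of uridylated let-7 precursors, had an intensity of 373 in Hmga2 KO replicate 2, against 254 to 271 for the remaining 3. Chance gives such a result in about 1 of 20 groups. The same sample had the lowest value on all 6 Igf2bp3 probe sets, but none of those met the criterion.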

How the results depend on the processing

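The lower mean of Igf2bp3 in Hmga2 KO kept its sign under all 17 alternatives and passed the adjusted test under none of them (adjusted p = 0.194 to 0.695, limma). The difference was -1.07 with sex as a covariate and in females alone, -0.54 with the replicate block, -0.34 with the most variable probe set, and -0.78 to -0.42 when 1 sample was left out. Between females it was -1.25 to -0.88 (adjusted p = 0.0883 to 0.577), and between sexes of Hmga2 KO 0.70 to 1.19. Between male Hmga2 KO and wild type it was 0.25 with the most variable probe set.

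Igf2bp1, close to background, changed sign: -0.090 with sex as a covariate and in females alone, -0.047 with array weights, -0.052 with the mean of probe sets, and -0.21 to 0.25 with 1 sample left out. Such omissions gave -0.24 to 0.14 for female Hmga2 KO against wild type, -0.46 to 0.73 for males (-0.0010 with the mean of probe sets) and -0.37 to 0.82 between sexes. Its probe set 1449210_at had -0.0072 with sex as a covariate and in females alone (-0.011 to 0.15 with 1 sample left out), and 1455223_at -0.090 there and -0.046 with array weights (-0.21 to 0.25).

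Other signs turned for Abcb1b (-0.021) and Gip (0.075) with sex as a covariate and in females alone, for Tra2a with these (-0.0056) and with the replicate block (-0.019), for Fubp1 with the mean (0.024) or most variable (0.19) probe set, for Insr with the most variable (0.034) and for Igf1r with the mean (-0.027). With 1 sample left out, the ranges crossed 0 for Tra2a (-0.047 to 0.061), B4galnt2 (-0.18 to 0.038), Igf2 (-0.36 to 0.023) and Cd44 (-0.014 to 0.13). The correlation of Tmlhe with Igf2bp3 was -0.63 with the most variable probe set.

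Genes past the test numbered 5, 99 with the replicate block and 2 to 17 with 1 sample left out, the 17 without Hmga2 KO replicate 2; without wild type replicate 3 there were 2. Probe sets past the test numbered 8, 84 with the replicate block, 13 with a trended and robust prior and 4 to 34, the 34 without Hmga2 KO replicate 2. Whether the replicate numbers pair the samples could not be settled, and 2 of 3 wild type samples correlated best with the same number. None of the lists gained a member past the test under any alternative run on them. Causes were not tested. Igf2bp1 is missing from the fit without the dimmest 40%, and the planned results on Igf2bp2 were not run.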
